A study of Mus musculus with 6 samples.

Results

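Transcripts of 10 cytokine receptor genes were followed in mouse regulatory T (Treg) cells with and without Crlf2, the chain that makes a receptor specific for the cytokine TSLP. The genes were Il2ra, Il2rb, Il4ra, Il21r and Il9r of the IL-2 and IL-4 receptor group, Il6ra, Il6st and Il27ra of the IL-6 group, and Il10ra and Il10rb of the IL-10 group. They were picked by name, and for each symbol the transcript row with the highest summed count over the 6 libraries was kept. All 10 were found among the 23992 symbols of the deposited count table, and all 10 passed the low-count filter that left 12720 genes for testing.

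The samples were 3 libraries labelled WT and 3 labelled KO, from cells sorted as live CD4+YFP+. WT stands for CD45.2 Foxp3YFP-Cre/Y mice, and KO for mice that carry the floxed allele Crlf2fl/fl as well, so both groups hold the Foxp3-driven Cre with its fluorescent reporter, and the mice were male. Deletion therefore depends on a Cre that is active in Foxp3-expressing cells. Lymph nodes and spleen were pooled per the labels, although the name of the count table says lung. Lung epithelial transcripts were present in every library, at levels given below, and the tissue of origin was not tested. No treatment of these cells and no age is given, and the labels do not say whether replicates are separate animals, so p-values measure the spread between these libraries. The strain lines of the sample descriptions name the opposite strains. Grouping followed the titles and genotype tags.

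These receptors signal through Janus kinases and STAT factors. IL-2 binds a receptor of an alpha chain (Il2ra, CD25), a beta chain (Il2rb) and the common gamma chain, and it sustains Foxp3 expression and Treg survival through STAT5. IL-4, IL-9 and IL-21 use the same gamma chain with Il4ra, Il9r and Il21r. IL-6 binds Il6ra and then recruits Il6st (gp130), which is also the partner of Il27ra for IL-27, and both routes activate STAT3. IL-10 binds Il10ra, which pairs with Il10rb, a chain shared with IL-22 and the lambda interferons.

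The shallowest library, WT replicate 2, held 1439736 counts and the deepest, KO replicate 3, 18352401. Levels are given as CPM, the count scaled to library size by TMM factors (trimmed mean of M values). Crlf2 measured 115 ± 27.7 CPM (SD, n = 3) in the WT libraries against 6.44 ± 2.76 CPM in the KO libraries. All 9 Treg-defining markers were detected, and Foxp3 ranged from 386 to 489 CPM over the KO libraries, with 474, 437 and 200.1 CPM for WT replicates 1 to 3. Markers of other cells were unevenly spread. The 16 lung epithelial markers, led by Scgb1a1 and Cyp2f2, made up 1.76% to 7.92% of each WT library and 0.252% to 2.04% of each KO library. The 9 erythroid markers, led by the globin genes Hbb-bs and Hbb-b1, took 14.5% of the counts in WT replicate 3 and 0.171% to 0.686% in the other libraries. Hbb-bt and Hbb-b2 had identical counts in all 6 libraries, and Hbb-bs and Hbb-b1 nearly so. The same reads may thus have been counted more than once, and these shares may be too high. The 15 macrophage and monocyte markers made up 0.0421%, 0.0806% and 0.733% of WT replicates 1 to 3, against 0.267% to 0.289% of each KO library. No marker of these lists was at 0 in all 6 libraries. In such bulk libraries, fewer cells of a type and less RNA per cell cannot be told apart.

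Of the 10 receptor genes, Il6st fell in KO and no other was called by edgeR at an adjusted p under 0.05 (1 of 10, where 1.74% of all tested genes were called, 0.755% higher and 0.983% lower). The log2 fold changes of the 10 ran from -1.26 to 0.87 with a median of -0.22, 4 being positive and 6 negative, and the median of all tested genes was -0.04. For 6 of the 10 the groups were fully apart: Il4ra, Il6ra and Il6st had lower values in every KO library, and Il10ra, Il10rb and Il27ra higher values. Over all tested genes, 22.0% had groups as fully apart, 11.5% with lower and 10.4% with higher values in KO. At an unadjusted edgeR p under 0.05 there were 7 of 10 (those 6 and Il9r), against 15.9% of all tested genes. The share among the receptor genes was thus above the background by both measures, in a set chosen with earlier results of these data known.

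**Figure D1:**
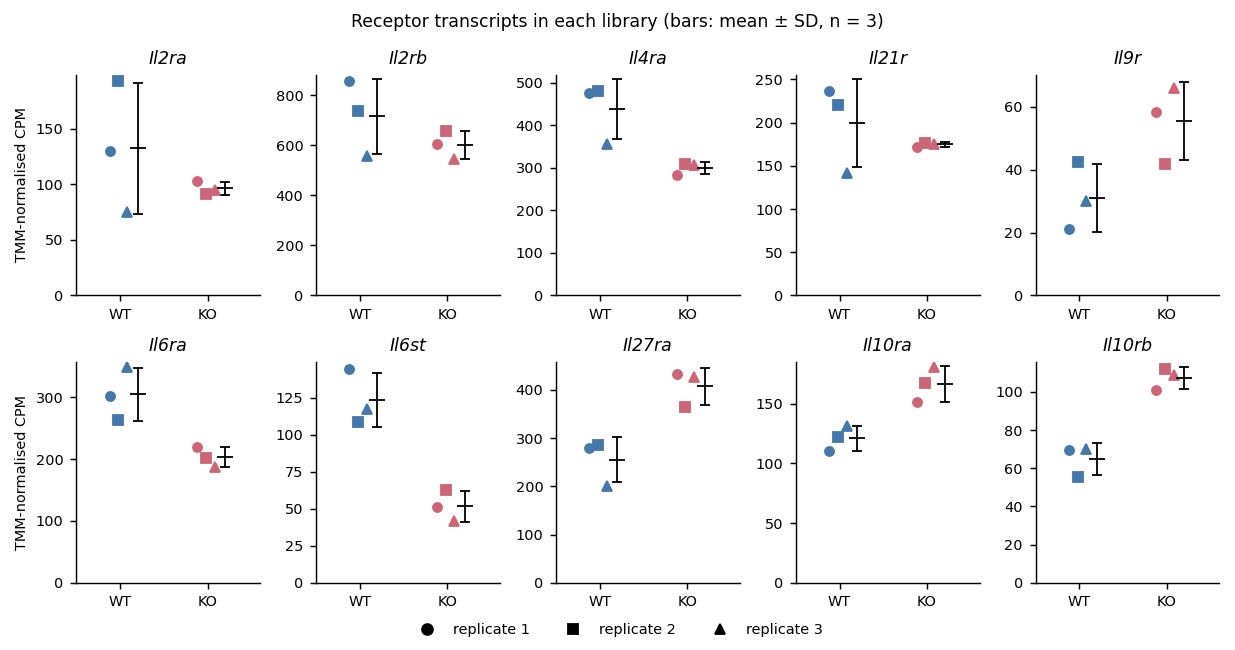
TMM-normalised CPM of the 10 receptor genes in each library. Blue points are WT and red points KO, symbols mark replicate numbers, and bars give the mean ± SD of 3 libraries. The groups are apart for Il4ra, Il6ra, Il6st, Il27ra, Il10ra and Il10rb, and overlap for Il2ra, Il2rb, Il21r and Il9r.

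Il6st, the signalling chain of the IL-6 family, lies on chromosome 13 (mm10, 112464070 to 112510086, plus strand, protein coding). Its level was 144, 109 and 117 CPM in WT replicates 1 to 3, and 51.1, 62.4 and 41.7 CPM in KO replicates 1 to 3. Every KO library was below every WT library, with a gap from 62.4 to 109 CPM. The mean fell from 123 ± 18.4 to 51.7 ± 10.4 CPM (SD, n = 3 each), a log2 fold change of -1.26 (SE 0.19, adjusted p = 0.0246 by edgeR), or a 2.40-fold lower level. Only 10.6% of the tested genes had a larger absolute log2 fold change. Behind these values stand 1077, 159 and 1241 reads in WT and 525, 780 and 798 reads in KO.

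The level of Il6st moved with the lung epithelial share, most of which was Scgb1a1 in every library. Some other markers of that list ordered the libraries otherwise, though KO replicate 3 was lowest for both of these. Sftpc was at 463 CPM in WT replicate 3 against 176 CPM in WT replicate 1. Epcam was at 25.0 CPM in WT replicate 3, below KO replicate 2 at 29.3 CPM. The library with the highest share (WT replicate 1, 7.92%) had the highest Il6st, and the one with the lowest share (KO replicate 3, 0.252%) the lowest. KO replicates 1 and 2, with shares of 1.67% and 2.04%, had 51.1 and 62.4 CPM, and WT replicate 2, with a share of 1.76%, had 109 CPM from 159 reads. With the log2 share as a covariate the log2 fold change was -0.97 (SE 0.19, adjusted p = 0.182 by edgeR), and edgeR then called no gene of the whole table (1141 at an unadjusted p under 0.05). Leaving out KO replicate 1, KO replicate 3, WT replicate 1 and WT replicate 2 in turn also ended the call (adjusted p = 0.171, 0.149, 0.0724 and 0.0585 by edgeR), with log2 fold changes of -1.24, -1.12, -1.13 and -1.32. In those fits only 0.0300%, 0.0533%, 0.249% and 0.164% of all tested genes were called. Without KO replicate 2 (0.949% of all genes called) and without WT replicate 3 it was called.

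**Figure D2:**
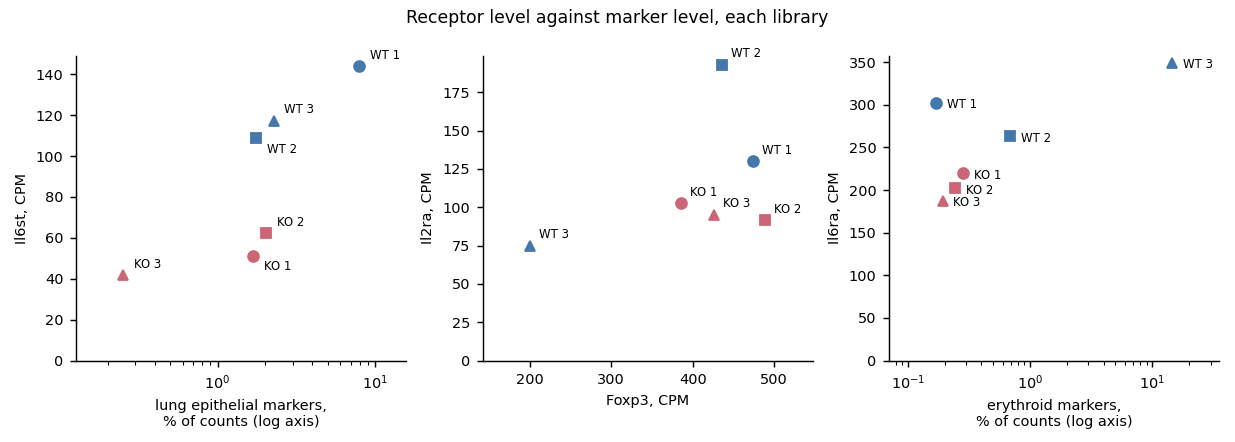
Receptor CPM (vertical axes, from 0) against a marker in each of the 6 libraries: Il6st against the lung epithelial share of counts (log axis), Il2ra against Foxp3 CPM, and Il6ra against the erythroid share of counts (log axis). KO replicates 1 and 2 lie below WT replicate 2 for Il6st at shares of 1.67%, 2.04% and 1.76%, WT replicate 3 is lowest for both Il2ra and Foxp3, and the same library is highest for Il6ra and for erythroid markers.

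Il6ra, the alpha chain that binds IL-6 itself, lies on chromosome 3 (89864059 to 89913196, minus strand). It was at 303, 263 and 349.5 CPM in WT replicates 1 to 3 and at 219.8, 202 and 187 CPM in KO replicates 1 to 3. All KO values were below all WT values, but the change did not pass the test over all genes (log2 fold change -0.59, SE 0.14, adjusted p = 0.0822 by edgeR). The highest value was that of WT replicate 3, the library with 14.5% erythroid counts. That library also had the highest shares of macrophage and monocyte (0.733%), neutrophil (0.0397%) and B cell (0.0374%) markers. Its share of CD8 and NK cell markers (0.0251%) was the highest as well. A link of Il6ra to any of these was not tested. Without that library the log2 fold change was -0.48 (adjusted p = 0.0813 by edgeR).

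The promoter sequences of these IL-6 receptor chains are shown because Il6st was the gene that passed the test and Il6ra forms the receptor with it. They are the 250 bases before the RefSeq start on GRCm38.p6 (the primary sequence of mm10), 5′ to 3′ on the gene's strand, from chr13:112463820-112464069 (plus strand) for Il6st and chr3:89913197-89913446 (minus strand) for Il6ra. Capitals mark a match to AGATAA on either strand, a letter string bound by GATA factors.
Il6st: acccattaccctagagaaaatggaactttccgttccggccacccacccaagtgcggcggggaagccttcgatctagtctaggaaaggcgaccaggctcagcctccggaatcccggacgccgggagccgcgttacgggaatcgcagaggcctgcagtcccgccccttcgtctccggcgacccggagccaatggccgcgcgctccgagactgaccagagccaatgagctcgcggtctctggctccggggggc
Il6ra: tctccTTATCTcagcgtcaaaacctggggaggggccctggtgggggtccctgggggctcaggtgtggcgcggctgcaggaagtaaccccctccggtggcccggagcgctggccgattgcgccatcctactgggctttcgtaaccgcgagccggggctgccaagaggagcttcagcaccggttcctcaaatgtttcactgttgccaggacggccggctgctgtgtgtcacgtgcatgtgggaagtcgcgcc

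Both windows are rich in G and C (66.0% for Il6st and 65.2% for Il6ra). Also searched on both strands were TTCNNNGAA (the STAT palindrome), GAAA followed after any 2 bases by GAAA (an interferon regulatory factor repeat) and CCGGAAG (ETS). Strings may share bases in part, but no such overlap occurred here. Of 32851 RefSeq windows of 250 bases, 7.02% held the STAT string, 2.98% the interferon regulatory factor string, 9.99% the GATA string and 6.91% the ETS string. RefSeq windows were matched for 6 receptor genes: Il2ra, Il4ra, Il6ra, Il6st, Il21r and Il9r. None of the 6 held the STAT, interferon regulatory factor or ETS letters, and the GATA letters occurred in Il6ra (first base 245 bases before the start) and at 2 places in Il9r (223 and 30 bases before it). A missing match says only that these letters are not in this window.

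Il27ra, the ligand-specific chain of the IL-27 receptor and the other partner of Il6st here, lies on chromosome 8 (84030294 to 84042589, minus strand). Its values in WT replicates 1 to 3 were 279, 285 and 201 CPM, and in KO replicates 1 to 3 they were 433, 364 and 427 CPM. All KO libraries were above all WT libraries, with a log2 fold change of 0.68 (SE 0.16, adjusted p = 0.0806 by edgeR) that did not pass the test. The lowest WT value was from WT replicate 3. Without it, the log2 fold change of Il27ra was 0.54 and passed (adjusted p = 0.0481 by edgeR).

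The proportions of the IL-6 and IL-27 receptor chains were compared as ratios within each library, which do not depend on how libraries are scaled. Counts of Il6ra per count of Il6st were 2.10, 2.42 and 2.98 in WT and 4.30, 3.23 and 4.49 in KO. All KO ratios were higher, by 0.68 on the log2 scale (1.31 ± 0.25 in WT and 1.99 ± 0.26 in KO, SD, n = 3 each; two-sided exact permutation p = 0.1, the smallest that 3 against 3 allows, and 0.333 after Benjamini-Hochberg adjustment over the 5 ratios computed). For Il27ra per Il6st, a ratio chosen after the values were seen and not tested, the counts gave 1.94, 2.62 and 1.71 in WT and 8.46, 5.82 and 10.2 in KO. The ratios of the groups did not overlap in either case. For Il27ra per Il6st this follows from Il27ra being higher and Il6st lower in every KO library, so it adds no separate evidence.

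Both chains of the IL-10 receptor had higher values in every KO library. Il10ra, the ligand-binding chain (chromosome 9, 45253837 to 45269149, minus strand), was at 110.5, 122 and 131 CPM in WT replicates 1 to 3 and at 151, 168 and 181 CPM in KO replicates 1 to 3. The groups did not overlap, and the log2 fold change of 0.46 (SE 0.13, adjusted p = 0.141 by edgeR) did not pass the test. Il10rb, the accessory chain (chromosome 16, 91406164 to 91425834, plus strand), was at 69.4, 55.4 and 70.3 CPM in WT and at 101, 112 and 109 CPM in KO. Its log2 fold change of 0.71 (SE 0.15, adjusted p = 0.0549 by edgeR) lay just outside the threshold. Il10rb passed with upper-quartile factors (adjusted p = 0.0483 by edgeR), with library totals alone (0.0304), with limma-voom (0.0460), with DESeq2 (0.00113) and without WT replicate 3 (0.0401). It did not pass by edgeR with pan-T scaling (0.399), Foxp3 scaling (0.821), the lung epithelial covariate (0.315) or the replicate block (0.140). Nor did it pass with voom quality weights (0.0557), or by edgeR without any other single library (0.0924 to 0.261). It also missed by edgeR with DESeq2 size factors (0.0519), no low-count filter (0.0520), a non-robust fit (0.0627) and the longest transcript row (0.0542). Il10rb passed in 5 of 20 settings, the main fit included.

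The ratio of Il10ra to Il10rb counts was 1.59, 2.2 and 1.87 in WT and 1.50, 1.50 and 1.66 in KO. The ratios overlapped, with a log2 difference of -0.27 (two-sided exact permutation p = 0.2, adjusted 0.333). WT replicate 2, the shallowest library, had 178 reads of Il10ra and 81 of Il10rb. Scaling to pan-T cell genes moved the median log2 fold change of all tested genes to -0.34, and scaling to Foxp3 counts, chosen after the data were seen, moved it to -0.48. Il10ra was then at 0.15 and -0.014 and Il10rb at 0.41 and 0.25. Relative to the median of all genes, Il10ra stayed 0.47 to 0.50 higher and Il10rb 0.73 to 0.76 higher under TMM, library totals, pan-T and Foxp3 scaling.

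Among the IL-2 receptor chains, Il2ra had the widest spread in WT. The gene for CD25, a surface marker of Treg cells (chromosome 2, 11642807 to 11693193, plus strand), was at 129.8, 193 and 74.9 CPM in WT replicates 1 to 3 and at 103, 91.4 and 95.2 CPM in KO replicates 1 to 3. All KO values fell inside the WT range, and the coefficient of variation was 44.6% in WT against 5.91% in KO. The log2 fold change of -0.44 (SE 0.30, adjusted p = 0.532 by edgeR) was within the spread between replicates. WT replicate 3, the library with the lowest Foxp3, had the lowest Il2ra. Without it the log2 fold change was -0.72 (adjusted p = 0.0679 by edgeR), and without WT replicate 2 it was -0.063.

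Il2rb, the signalling chain shared by IL-2 and IL-15 (chromosome 15, 78479256 to 78495271, minus strand), was the most abundant of the 10, also per transcript length. It was at 855, 737 and 558 CPM in WT and at 605, 655 and 545 CPM in KO, so the groups overlapped. The log2 fold change was -0.25 (SE 0.16, adjusted p = 0.509 by edgeR). Il2ra counts per Il2rb count were 0.152, 0.262 and 0.134 in WT and 0.170, 0.140 and 0.175 in KO. These ratios overlapped (log2 difference -0.12, two-sided exact permutation p = 0.9), and the difference was 0.17 without WT replicate 2.

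Il4ra, the chain that binds IL-4 and also serves IL-13, lies on chromosome 7 (125552120 to 125579474, plus strand). It was at 476, 481 and 356 CPM in WT replicates 1 to 3 and at 283, 308 and 308 CPM in KO replicates 1 to 3. The groups did not overlap, and KO values were close together, with a coefficient of variation of 4.76% against 16.1% in WT. The log2 fold change of -0.54 (SE 0.14, adjusted p = 0.102 by edgeR) did not pass the test. Without WT replicate 3 the value was -0.67 and passed (adjusted p = 0.0125 by edgeR), and it passed too when scaled to pan-T cell genes (-0.80, adjusted p = 0.0356 by edgeR). That scaling moved the median of all tested genes to -0.34. Relative to the median, Il4ra was at -0.46 with pan-T scaling and at -0.50 with TMM.

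Il21r, which binds IL-21, is the next gene along chromosome 7 (125603429 to 125633570, plus strand), starting 23955 bases after the end of Il4ra with 0 RefSeq genes lying wholly between them. It was at 237, 220.3 and 142 CPM in WT and at 171, 177 and 176 CPM in KO. The KO libraries lay inside the WT range, with a coefficient of variation of 1.64% against 25.3% in WT (log2 fold change -0.19, SE 0.19, adjusted p = 0.685 by edgeR). Per Il2rb count, the log2 difference was -0.30 for Il4ra (two-sided exact permutation p = 0.2, adjusted 0.333) and 0.08 for Il21r (p = 0.5, adjusted 0.625, same exact permutation test). Both sets of ratios overlapped between the groups.

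Il9r, the IL-9 receptor chain found on mast cells and some T cells (chromosome 11, 32187541 to 32200279, minus strand), was among the least abundant. It was at 21.0, 42.4 and 29.9 CPM in WT replicates 1 to 3 and at 58.4, 41.7 and 66.1 CPM in KO replicates 1 to 3. KO replicate 2 lay just under WT replicate 2, so the groups overlapped. The log2 fold change of 0.87 (SE 0.29, adjusted p = 0.182 by edgeR) was the highest of the 10, with the second widest SE. WT replicate 2 rested on 62 reads, and the log2 fold change was 1.14 without that library and 0.48 with the lung epithelial covariate. Il9r was the only one of the 10 with 2 transcript rows, whose counts differed by at most 3 reads in any library. The 8 mast cell and ILC2 markers, led by Rora and Mcpt8, made up 0.0214% to 0.0297% of the KO libraries against 0.0194% to 0.0206% of the WT libraries. In every library but WT replicate 3, nearly all of these reads were Rora, which T cells express too. Rora averaged 243 CPM in KO and 170 CPM in WT, and Mcpt8 0.362 and 16.2 CPM. Every other marker of the list also had a lower mean in KO, with its highest value in WT replicate 3. The protease genes Cpa3 and Mcpt8, markers of mast cells and basophils, had 138 and 488 reads in WT replicate 3 and 1 to 6 reads each in the other libraries. WT replicate 3, at 29.9 CPM, was neither the highest nor the lowest WT library for Il9r.

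**Figure D3:**
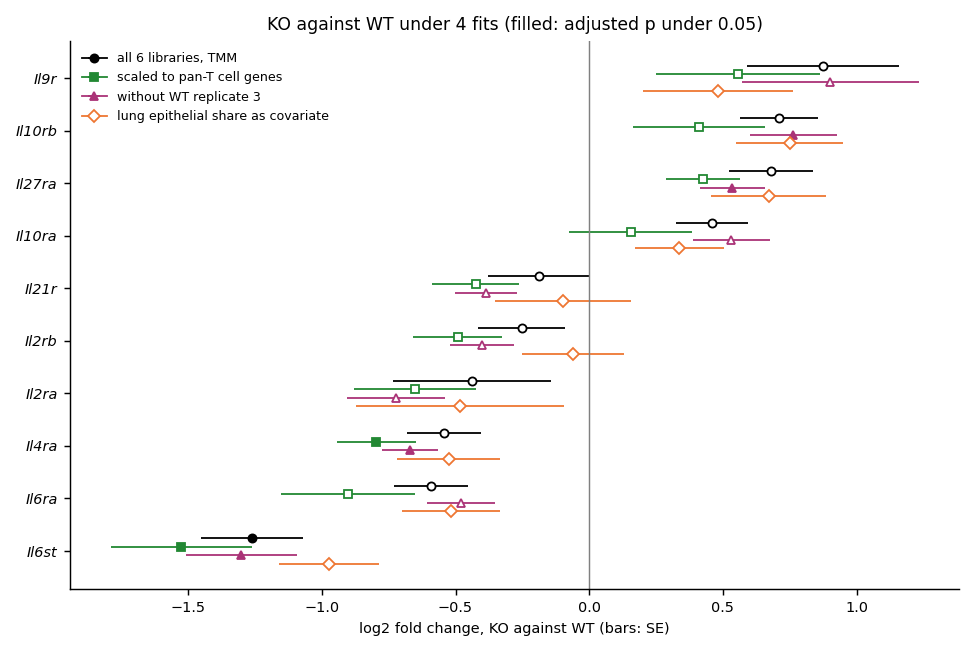
Log2 fold change of KO against WT for each receptor gene under 4 fits of the whole table, with bars for the SE and filled symbols for an adjusted p under 0.05. With all 6 libraries only Il6st is filled. The 4 positive and 6 negative genes keep their sign in these fits, while scaling to pan-T cell genes moves all of them down.

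Which receptor genes were called depended on the tool and on single libraries. DESeq2 called 6 of the 10 (6.78% of all tested genes): Il4ra, Il6ra and Il6st lower, and Il10ra, Il10rb and Il27ra higher. limma-voom called 4 (2.81% of all genes) and with sample quality weights 3 (2.77%). edgeR called 2 with upper-quartile factors (1.67%), 2 with library totals alone (1.53%) and 1, again Il6st, with the replicate number as a block (0.967%). edgeR without WT replicate 3 called 4 (4.01%), namely Il4ra and Il6st lower and Il10rb and Il27ra higher. WT replicate 3 had the lowest value of its group for 5 genes (Il2ra, Il2rb, Il4ra, Il21r and Il27ra), and pan-T cell genes took 0.411% of its counts against 0.640% to 0.842% in the other libraries. Scaled to pan-T cell genes, Il4ra and Il6st were called lower and none higher (1.59% of all genes), with the median of all genes at -0.34. Relative to the median of all genes under each scaling (TMM, library totals, pan-T and Foxp3), Il2ra moved most, between -0.43 and -0.21. Il27ra was 0.71 to 0.83 above it, Il9r 0.90 to 0.92 above it and Il6st between -1.22 and -1.19.

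The order of levels was compared per transcript length, as CPM per kilobase. In WT it ran Il2rb (266 ± 55.5), Il27ra (95.9 ± 17.7), Il6ra (91.2 ± 13.0), Il4ra (86.0 ± 13.9), Il21r (76.6 ± 19.4), Il10rb (35.2 ± 4.51), Il10ra (34.7 ± 3.01), Il2ra (29.9 ± 13.3), Il6st (22.6 ± 3.37) and Il9r (10.1 ± 3.49; SD, n = 3 each). Il2rb stood clear of the next gene, Il21r of Il10rb, and Il6st of Il9r. Il27ra, Il6ra, Il4ra and Il21r overlapped in sequence, as did Il10rb, Il10ra, Il2ra and Il6st. Within single WT libraries, Il4ra was above Il21r in all 3. Each other overlapping pair kept its order in only 1 or 2 of the 3.

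In KO the order was Il2rb (223 ± 20.4), Il27ra (153 ± 14.4), Il21r (67.0 ± 1.10), Il6ra (60.7 ± 4.88), Il4ra (58.9 ± 2.80), Il10rb (58.0 ± 3.02), Il10ra (47.7 ± 4.28), Il2ra (21.8 ± 1.29), Il9r (18.0 ± 4.04) and Il6st (9.49 ± 1.91; CPM per kilobase, SD, n = 3 each). Here the neighbours that overlapped were Il6ra with Il4ra, Il4ra with Il10rb, and Il2ra with Il9r. The last 2 of these pairs kept their order in all 3 KO libraries, and Il6ra was above Il4ra in 1. Il6st and Il9r exchanged the last places: Il6st was above Il9r in all 3 WT libraries and below it in all 3 KO libraries. On the same scale the common gamma chain Il2rg, which the receptors for IL-2, IL-4, IL-9 and IL-21 share, was at 458 in WT and 418 in KO, above Il2rb in both.

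**Figure D4:**
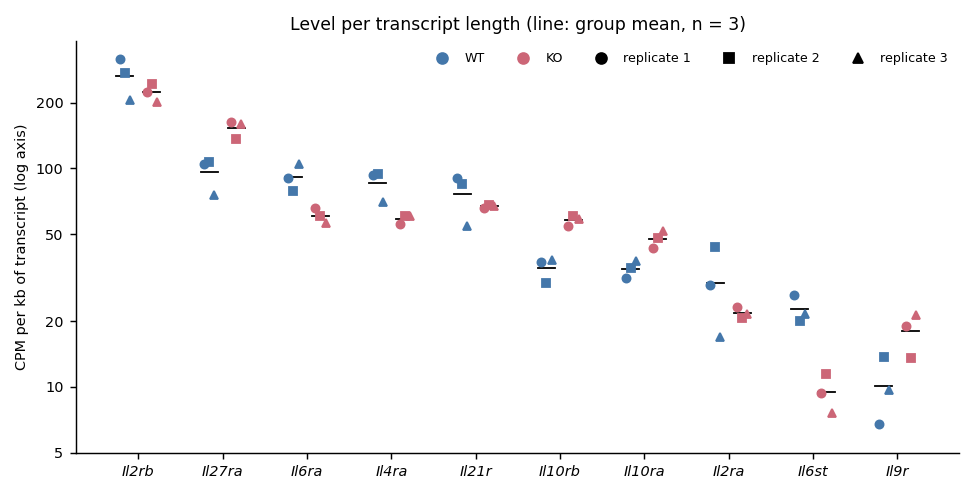
CPM per kilobase of transcript on a log axis for the 10 receptor genes, ordered by their WT mean. Blue points are WT and red points KO libraries, and each line is a mean of 3. Il2rb is highest in both groups, and the KO points of Il6st lie below those of Il9r while the WT points lie above.

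Variation between libraries was larger in WT for 8 of the 10 genes, the exceptions being Il6st and Il10ra. The same count was not made over all tested genes. The WT group holds the shallowest library and the one with 14.5% erythroid counts. The 4 genes with the largest SD of log2 CPM over the 6 libraries were Il6st (0.73), Il9r (0.61), Il2ra (0.48) and Il27ra (0.43). For these, the most similar profiles were sought among 10344 other genes of at least 5 CPM, by the root mean square difference of centred log2 CPM over 6 libraries. For Il6st these were Gm4956 (0.073), whose mean of 5.26 CPM was close to that limit, and Lgals3bp (0.14), which encodes a secreted galectin-binding glycoprotein. Lgals3bp was at 475, 436 and 347 CPM in WT and at 182, 230.1 and 148 CPM in KO. For Il9r they were Abtb1 (0.088) and Rn4.5s (0.11), for Il2ra Hist1h4h (0.044) and Trp53inp1 (0.064), and for Il27ra AI467606 (0.060) and Ubash3a (0.073), the last a negative regulator of T cell receptor signalling. Among the receptor genes themselves, Il2rb and Il21r (0.11), Il2rb and Il4ra (0.19), and Il10ra and Il10rb (0.20) were the closest pairs.

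Of the cytokines that these receptors bind and their relatives, 9 of 20 listed genes passed the low-count filter, and Il10 was called higher. For this list and those below, 1.74% of all tested genes were called, 0.755% higher and 0.983% lower. Il10 was at 42.9, 61.6 and 24.8 CPM in WT and at 187, 193 and 219.9 CPM in KO. Every KO library was above every WT library (log2 fold change 2.27, SE 0.29, adjusted p = 0.016 by edgeR). IL-10 is the ligand of the receptor made of Il10ra and Il10rb. Il2, Il9, Il21 and Il27, the last encoding 1 subunit of IL-27, did not pass the filter, with at most 17 reads in any library. Ebi3, which encodes the other IL-27 subunit, passed it with 47 to 446 reads per library and was not called (log2 fold change -0.34, SE 0.25, adjusted p = 0.567 by edgeR). Il4 and Il6 passed it but were not called. Il4 had 348 of its reads in WT replicate 3 and 2 to 94 in the other libraries, and Il6 had 115 in WT replicate 3 and 0 to 33 in the others.

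Among 9 tested chains of the gamma chain, IL-4 and beta chain groups outside the 10, Crlf2 was called lower and Il7r higher. Il7r, the IL-7 receptor chain that also pairs with Crlf2, was at 105, 151 and 109 CPM in WT and at 303, 261 and 319 CPM in the KO libraries (log2 fold change 1.29, SE 0.17, adjusted p = 0.016 by edgeR). Il2rg had a log2 fold change of -0.13 (SE 0.13). Of 8 tested chains of the IL-6 and IL-12 groups none was called. The smallest p belonged to Il12rb2 (log2 fold change -3.85, SE 0.82, adjusted p = 0.0616 by edgeR), the IL-12 receptor chain, at 3.88, 3.42 and 15.0 CPM in WT and 0.313 to 0.881 CPM in KO, and to Il12rb1 (-0.86, SE 0.25). Of 5 tested class II chains none was called either. Those of smallest p were the type I interferon receptor chains Ifnar1 (0.37, SE 0.12) and Ifnar2 (0.45, SE 0.16).

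Downstream, Stat2 was called lower among 10 JAK and STAT genes (4 positive and 6 negative, median log2 fold change -0.08). Stat2, part of the complex that type I interferon receptors activate, was at 235, 211 and 172 CPM in WT and at 81.4, 94.8 and 77.6 CPM in KO replicates 1 to 3. No KO library reached the lowest WT value (log2 fold change -1.28, SE 0.16, adjusted p = 0.0131 by edgeR). Stat3, the main factor of the IL-6, IL-10 and IL-21 receptors, averaged 538 ± 63.5 CPM over the WT and 502 ± 34.3 CPM over the KO libraries (SD, n = 3 each), and was not called.

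Of 13 feedback genes 2 were called, both lower, where 0.983% of all tested genes were called lower. Socs1 was at 453, 389 and 277 CPM in WT and at 169, 176 and 169 CPM in the KO libraries (log2 fold change -1.12, SE 0.18, adjusted p = 0.0269 by edgeR). Socs3, which encodes the inhibitor that binds gp130, was at 419, 326 and 424 CPM in WT and at 227, 257 and 249 CPM in KO. Its groups did not overlap, and the log2 fold change of -0.68 (SE 0.13, adjusted p = 0.0497 by edgeR) was near the threshold. In a list of 8 genes for receptor shedding, processing and adaptors, Furin, a proprotein convertase, fell by 0.86 (SE 0.16, adjusted p = 0.0415 by edgeR) on the log2 scale. Irs2, an adaptor of the IL-4 receptor and the insulin receptor, rose by 1.14 (SE 0.19, adjusted p = 0.0307 by edgeR), from 45.5, 30.8 and 50.9 CPM in WT to 97.0, 94.7 and 94.6 CPM in KO. The sheddases of IL-6 receptor, Adam10 and Adam17, were not called.

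**Figure D5:**
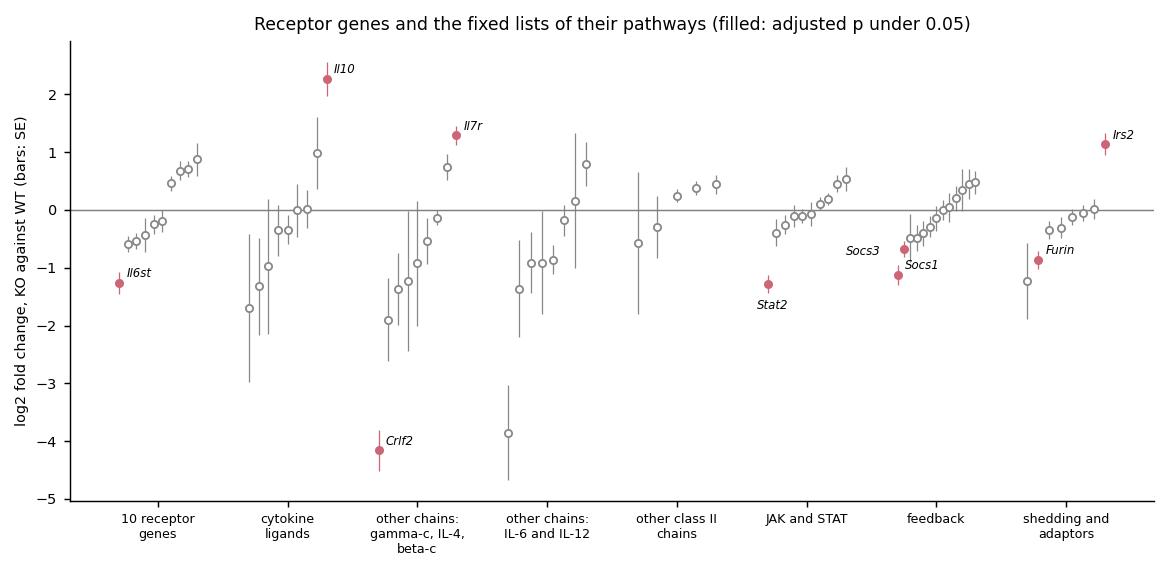
Log2 fold change of KO against WT for the 10 receptor genes and for the tested members of 7 lists of ligands, other receptor chains, kinases and STAT factors, feedback genes and shedding or adaptor genes, each sorted by value, with bars for the SE. Filled and named points have an adjusted p under 0.05. Il6st is the only filled receptor gene of the first column, and the called genes elsewhere are Il10, Crlf2, Il7r, Stat2, Socs1, Socs3, Furin and Irs2.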

How the data were processed

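RNA of 6 sorted mouse Treg libraries (3 KO, 3 WT) was sequenced on an Illumina NovaSeq. The deposited table gives unnormalized read counts for each RefSeq transcript beside its length, per the file headers. The submitters' processing notes name bcl2fastq, Bowtie2 2.2.6, TopHat2 2.2.1 and mm10. Not given in the sources used here were the counting program, strand setting and annotation release. Of 31682 rows, the one with most reads was kept per symbol (23992). After filterByExpr (minimum count 10, minimum total 15), 12720 genes were fitted with edgeR 4.0.16 in R 4.3.3 (TMM, robust quasi-likelihood F-test, Benjamini-Hochberg over all tested genes, called at 0.05). Each SE was taken as |log2 fold change| over the root of its F statistic. On counts simulated for this comparison over 12720 genes (5 runs, 200 changed), 20.1% of 2-fold and 65.4% of 4-fold changes were recovered, and 10.2% of calls were unchanged genes, above the nominal level. A count of 3, the limit that 0 counts allow, equals 2.05 CPM in WT replicate 2 and 0.157 to 0.401 CPM elsewhere (counting error only).

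The receptor genes and all lists were chosen with earlier results of these data known. The text names the 10 receptor genes, Crlf2, Foxp3, the called genes of each pathway list or the 2 of smallest p, the 2 most similar profiles of 4 receptor genes, and the 2 highest markers of lists whose level moved with a result. Il2rg, Il2, Il4, Il6, Il9, Il21, Il27, Ebi3, Stat3, Adam10 and Adam17 were named after their values were seen. A listed pathway gene is not reported here, and the counts of its list leave it out. Ratios of chains were compared by exact permutation tests. Positions come from GENCODE M21 (GRCm38, mm10). DESeq2 1.42.0, limma-voom (limma 3.58.1), other scalings and filters, a replicate block, a lung epithelial covariate and leaving out each library were the alternatives.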

Additional observations from a re-analysis of the deposited data

How the results depend on the processing

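edgeR called 221 genes with all 6 libraries, 96 higher and 125 lower. DESeq2 called 863, limma-voom 357 and 352 with sample quality weights, and edgeR 123 with the replicate number as a block (32 higher, 91 lower) and 0 with the lung epithelial covariate (1141 at an unadjusted p under 0.05). Leaving out single libraries gave 4 to 518. The split was 137 higher and 57 lower with library totals alone, 30 and 172 when scaled to pan-T cell genes, and 16 and 146 when scaled to Foxp3 counts, an alternative chosen after the data were seen. Of the 10 receptor genes, 1 was called. This became 2 with upper-quartile factors, library totals or pan-T scaling, 6 with DESeq2, 4 with limma-voom, 3 with quality weights, 0 with the lung covariate (5 at an unadjusted p under 0.05), and 0 to 4 when single libraries were left out.

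Of 190 refitted log2 fold changes of receptor genes, 168 stayed on their side of the threshold with the same direction, 16 came to pass it, 5 (all Il6st) no longer passed, and 1 changed sign: Il10ra at -0.014 when scaled to Foxp3 counts, which moved the median of all genes to -0.48 and left Il10ra 0.47 above it (0.50 with TMM). The ratio differences ran from -0.31 to 0.17 for Il2ra/Il2rb when single libraries were left out, the last without WT replicate 2. For the replicate block, libraries of the same number did not deviate together (r across genes 0.084, -0.15 and -0.044 for numbers 1 to 3). The labels do not say what the number stands for, and with 3 libraries per group this check cannot tell. Il6st was called in the fit with the replicate block too (log2 fold change -1.27, edgeR adjusted p = 0.0470). The shallow WT replicate 2, with 62 to 1077 reads per receptor gene, limits the precision of all WT means.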
